A study of Mus musculus with 9 samples.

Results

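Transcripts of 10 gluconeogenic and fasting-induced genes were examined in mouse liver: Pck1, G6pc, Fbp1 and Pcx of glucose synthesis, the coactivator Ppargc1a, the amino acid enzymes Tat, Sds and Got1, the kinase Pdk4 and the secreted protein Igfbp1. They were picked by name, and their rows were taken from the 32285 genes of the deposited table. Livers came from Tet-OFF mice, which carried PB CAG-CreERT2 together with LSL-tTA (tTA behind a loxP-flanked stop cassette) and tetO-Venus-ires-mCherry, both at Rosa26, and all groups received tamoxifen, which lets Cre remove the stop. The Control group received tamoxifen only, and the Dox and Tc groups also received doxycycline or tetracycline from 4 weeks of age, dissolved in the drinking water at 2 mg/mL and given over 7 days. The study describes the mice given either drug for this RNA-seq as male. There were 3 libraries per group. Both drugs switch tTA off, so a response to the drug and a response to the loss of tTA activity and of the fluorescent proteins cannot be told apart in these groups. The drug water contained sucrose, and whether Control mice drank sucrose is not given in the sources used here. Food was freely available, and neither the hour of collection nor the feeding state at collection is given.

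Gluconeogenesis is the making of glucose from lactate, glycerol and amino acids, and in fasting the liver is its main site. Glucagon acts through cAMP and the factor CREB, cortisol or corticosterone acts through the glucocorticoid receptor, and insulin acts through FOXO1 to restrain many of the same genes. Pck1 and G6pc are the classical transcriptional targets of this control, and Igfbp1 and Pdk4 are liver genes that insulin lowers. A bulk library holds the whole organ, so fewer cells of a type and less RNA per cell cannot be told apart.

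Stretches before the RefSeq start of 4 of these genes are shown because they hold letters of the elements through which cAMP and insulin are known to act. RefSeq promoter sequences (GRCm38.p6) were matched for 9 of the 10 genes, all but Sds, and the 250 bases before each start were searched on both strands. Capitals mark matches to TNACGTNA, which resembles the cAMP response element, and to CAAAACA, an insulin response sequence. The stretches lie at chr2:173152823-173153072 for Pck1, chr11:101367466-101367565 for G6pc, chr8:109990186-109990435 for Tat and chr11:7197537-7197786 for Igfbp1, all on the plus strand. For G6pc only the first 100 bases of the window are printed. The window searched runs on to chr11:101367715, and its unprinted part lies wholly inside the gene in GENCODE vM21. GENCODE vM21 places some starts earlier than RefSeq, so that the last 25 bases shown for Pck1 and the last 5 for both G6pc and Igfbp1 lie inside the gene in that annotation.
Pck1: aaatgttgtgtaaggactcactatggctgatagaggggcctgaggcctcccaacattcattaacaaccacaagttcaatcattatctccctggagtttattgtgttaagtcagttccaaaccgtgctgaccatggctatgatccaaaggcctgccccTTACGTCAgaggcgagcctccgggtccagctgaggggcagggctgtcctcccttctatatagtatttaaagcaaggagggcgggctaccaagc
G6pc: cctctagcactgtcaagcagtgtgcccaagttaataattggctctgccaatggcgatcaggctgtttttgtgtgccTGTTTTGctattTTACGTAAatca
Tat: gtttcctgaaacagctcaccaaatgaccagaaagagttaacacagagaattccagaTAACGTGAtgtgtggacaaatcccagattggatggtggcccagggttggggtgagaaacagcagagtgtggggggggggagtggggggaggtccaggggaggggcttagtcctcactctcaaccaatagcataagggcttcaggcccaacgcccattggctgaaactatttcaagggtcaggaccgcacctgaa
Igfbp1: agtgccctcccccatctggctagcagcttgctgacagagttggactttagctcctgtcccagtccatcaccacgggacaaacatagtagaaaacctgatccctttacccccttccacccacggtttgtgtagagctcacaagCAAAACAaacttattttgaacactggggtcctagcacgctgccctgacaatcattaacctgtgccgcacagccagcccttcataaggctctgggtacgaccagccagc
The cAMP element letters begin at position -93 from the RefSeq start in Pck1, -162 in G6pc and -194 in Tat, and the insulin response letters begin at -174 in G6pc, on the opposite strand, and at -108 in Igfbp1. TNACGTNA occurs in 3.83% of the 32851 RefSeq promoter windows and CAAAACA in 5.56%. TATAAA was found in G6pc alone among these genes, at -29 in the unprinted part of its window, and in 12.4% of all windows. GTAAACA (a forkhead core, 3.17% of windows), CAAAGTCCA (an HNF4 core, 0.384%) and TTGCGNAA (a C/EBP core, 0.67%) were found in none of the 9 genes, which says only that these letters are absent from these windows. A match is a description of the sequence and not a measured site. Genes with matches included both G6pc, which was high in every Dox library, and Tat, which was high in only part of them.

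Between 7426136 and 12183041 reads per library fell on genes, and values are the authors' normalized counts, in which each library was scaled by its own size factor. In all 3 groups, library 3 resembled a mixture of libraries 1 and 2, with weights of 58.28% and 42.13% in the Control group, 61.34% and 34.57% in the Dox group and 62.13% and 36.75% in the Tc group. Where libraries 1 and 2 were over 2-fold apart, library 3 took an intermediate value at 501 of 586 such genes in the Control group, 4139 of 4264 in the Dox group and 962 of 1022 in the Tc group, and among the 10 genes at 4 of 4, 8 of 8 and 2 of 2. The study calls the samples of a group independent, which these values do not show for the libraries numbered 3. If those were not separate mice, p-values from 9 libraries would be too small, so calls are given with and without them. The livers carried hepatocyte markers at high levels, and the summed normalized count of 9 markers ranged from 1339732 to 1844168 in the Control group, 538289 to 1055295 in the Dox group and 1057623 to 1538596 in the Tc group. Dox library 2 was the lowest of the 9. Albumin (Alb) weighed heavily in these sums, at 1408836 in Control library 1, where the sum was 1844168, and 255547.5 in Dox library 2. For Ttr, Cyp2e1, Apob, Apoa1 and Serpina1a, Dox library 1 was above and Dox library 2 below every Control library. Hnf4a went the reverse way, at 9123.0 in Dox library 1 and 20157.9 in Dox library 2, against 9779.4 to 11276.4 in Control livers. Cps1 was above every Control library in both, at 62019.7 and 127213.0, against 47780.5 to 58689.8. Alb and Fgb were below every Control library in every Dox library.

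All 10 genes passed the filter of a mean of at least 10 normalized counts, as did 12100 genes in all. A gene was called differentially expressed when limma on log2(normalized count + 1) gave an adjusted p (Benjamini-Hochberg, over those 12100 genes) under 0.05 and more than a 2-fold change. In Dox-treated livers against Control livers, 1 of the 10 genes was called, G6pc, which rose, beside 5.00% of all genes tested. DESeq2 on the recovered reads of 9 libraries called 6 of them (G6pc, Got1, Igfbp1, Pdk4, Ppargc1a and Tat), beside 9.37% of all genes. Without the libraries numbered 3, limma called 0 of the 10 with 1 at an unadjusted p under 0.05, beside 0% of all genes (an unadjusted p under 0.05 in 1040 of the 12100). DESeq2 without them called 0 of the 10, beside 1.16%, with 7 at an unadjusted p under 0.05, beside 1275 of the 12100. edgeR with 9 libraries also called 0 of the 10, beside 668 of the 12100 genes. It gave 7 of the 10 an unadjusted p under 0.05, beside 3680 of the 12100. What separates the genes is how the individual Dox livers behaved: G6pc was high in each, whereas Igfbp1, Pdk4, Got1, Tat and Ppargc1a were very high in library 2, intermediate in library 3 and not above the Control libraries in library 1.

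**Figure D1:**
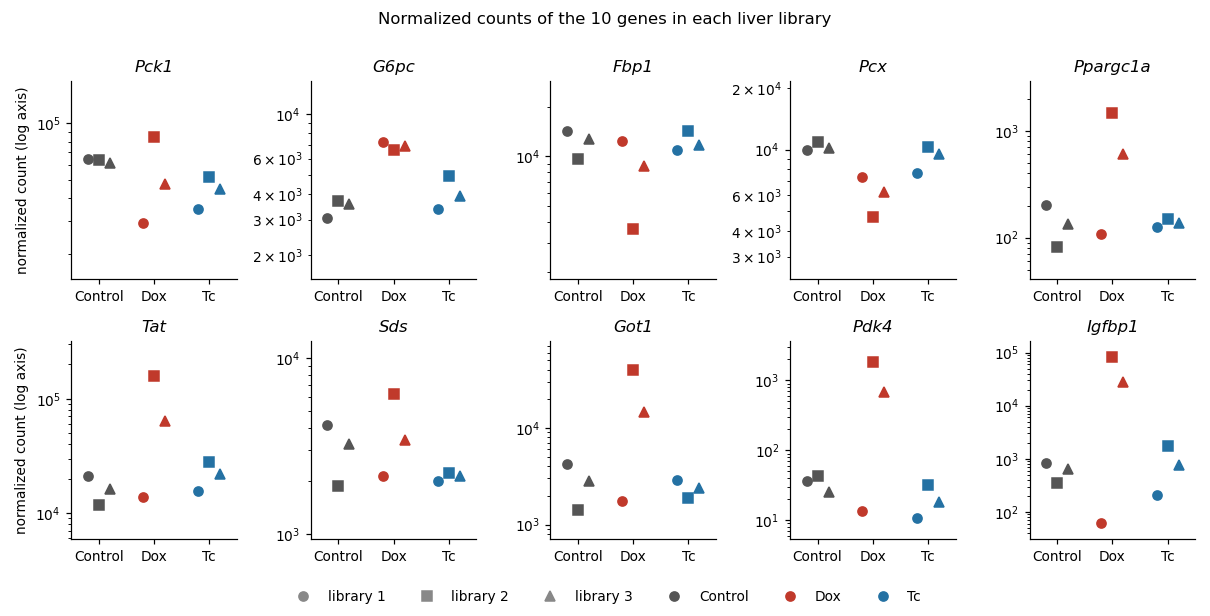
Normalized counts (log axis, with its own range for each gene) of the 10 genes in each library of the Control, Dox and Tc groups, where circles, squares and triangles are libraries 1, 2 and 3. The 3 Dox libraries lie together for G6pc, between 6620.0 and 7264.5, and are far apart for Igfbp1, between 61.1 and 82200.5.

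Per kb of exon, the order of the genes in Control livers ran from Pck1, at 17860 to 18800 normalized counts per kb, to Pdk4, at 7.242 to 12.09. Tat (4913 to 8802 per kb) and Fbp1 (5669 to 8372) followed Pck1 with overlapping ranges, and Pcx stood below them at 2105 to 2282. Sds (1107 to 2468), G6pc (1265 to 1544) and Got1 (557.2 to 1676) overlapped in turn, and Igfbp1 was at 233.8 to 554.6 and Ppargc1a at 12.48 to 30.99. The highest Dox value of Igfbp1, 53900 per kb, was above every Control value of Pck1 on this scale, and that of Tat was 66260 per kb.

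Glucose-6-phosphatase (G6pc, ENSMUSG00000078650, chr11:101367561-101377903) releases free glucose at the end of gluconeogenesis and glycogen breakdown. Its normalized counts were 3054.9, 3727.2 and 3585.3 in the Control libraries 1, 2 and 3, then 7264.5, 6620.0 and 6889.6 with Dox and 3377.7, 4936.9 and 3922.2 with Tc. Every Dox library was above every Control and Tc library, and the Tc and Control ranges overlapped. The log2 fold change of G6pc with Dox was 1.01 ± 0.17 (SE, limma adjusted p = 0.01501), with a 95% interval of 0.61 to 1.40. DESeq2 gave 1.003 (adjusted p = 1.249e-06) and called it, and edgeR gave 0.99 (adjusted p = 0.01967), just under the fold limit. Without the libraries numbered 3, the change was 1.04 with an adjusted p of 0.5589 by limma and 0.1113 by DESeq2, so the size held and the call did not. Leaving out Dox libraries 2 and 3 left 1.08 (limma adjusted p = 0.02059), from 1 Dox liver assumed to vary like the other groups. The G6pc call was also lost without any 1 Control library (adjusted p from 0.05598 to 0.07232) and without Dox library 3 (0.06993), and without Dox library 1 the fold fell under the limit. With the replicate number as a block and only Dox and Control libraries in the fit, the adjusted p was 0.1237.

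Pck1, the cytosolic phosphoenolpyruvate carboxykinase (ENSMUSG00000027513, chr2:173153048-173159273), turns oxaloacetate into phosphoenolpyruvate. It was the steadiest of the 10 genes among Control livers, with normalized counts of 64453.5, 63625.3 and 61228.2. With Dox it was 29615.2, 84318.2 and 47489.0, so library 1 was below and library 2 above all Control libraries. With Tc it was 34903.4, 51623.9 and 44581.1, below every Control library. The log2 fold change of Pck1 was -0.36 ± 0.39 with Dox (limma adjusted p = 0.5693) and -0.55 ± 0.39 with Tc (adjusted p = 0.6578). Control and Tc libraries did not overlap for Pck1 alone among the 10 genes, beside 30.7% of all genes tested.

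Fructose-1,6-bisphosphatase (Fbp1, ENSMUSG00000069805, chr13:62864753-62888282) removes a phosphate between Pck1 and G6pc in the pathway, and pyruvate carboxylase (Pcx, ENSMUSG00000024892, chr19:4510472-4621752) makes oxaloacetate in mitochondria. Fbp1 normalized counts were 14248.8, 9649.3 and 12721.4 in Control livers, 12328.3, 3626.9 and 8705.5 with Dox and 10933.0, 14302.7 and 11694.2 with Tc. Dox library 2 was the lowest of the 9 for Fbp1, at 0.2942 of Dox library 1. Pcx was 10004.1, 10845.4 and 10232.0 in Control livers, 7385.6, 4662.2 and 6188.4 with Dox and 7689.0, 10343.3 and 9556.6 with Tc. Every Dox library was below every Control and Tc library for Pcx. Its log2 fold change with Dox was -0.79 ± 0.21 (limma adjusted p = 0.05087), a 95% interval of -1.27 to -0.32, and that of Fbp1 was -0.72 ± 0.41 (adjusted p = 0.2717). DESeq2 gave Pcx -0.77 with an adjusted p of 0.003092 and without the libraries numbered 3 -0.78 with 0.437, so neither tool called it at the fold limit. Dox and Control groups did not overlap for G6pc and Pcx, 2 of the 10 genes, beside 33.3% of all genes.

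Ppargc1a (ENSMUSG00000029167, chr5:51454250-51567726) encodes PGC-1alpha, a coactivator that drives gluconeogenic and mitochondrial genes in fasting. Its normalized counts were 204.3, 82.3 and 134.8 in Control livers, 108.5, 1463.2 and 604.4 with Dox and 126.0, 151.1 and 138.1 with Tc. Dox library 1 lay within the Control range and library 2 was 7.162-fold above the highest library outside the Dox group. The log2 fold change with Dox was 1.80 ± 0.80 by limma (adjusted p = 0.176) and 2.37 ± 0.69 by DESeq2 (adjusted p = 0.007319), and without the libraries numbered 3 DESeq2 gave 2.46 with an adjusted p of 0.3003. Without Dox libraries 2 and 3 the limma value was -0.27 (adjusted p = 0.6858), the opposite sign.

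Tyrosine aminotransferase (Tat, ENSMUSG00000001670, chr8:109990437-109999803) starts tyrosine breakdown and is a textbook glucocorticoid-induced gene of liver. Its normalized counts were 21169.4, 11816.8 and 16131.2 in Control livers, 13817.2, 159363.9 and 63626.8 with Dox and 15567.5, 28147.8 and 21794.9 with Tc. Dox library 2 was 9.734-fold the Control mean and Dox library 1 0.8439 of it. By limma the log2 fold change of Tat with Dox was 1.71 ± 0.76 (adjusted p = 0.1777), by DESeq2 2.27 ± 0.65 (adjusted p = 0.006261) and by DESeq2 without the libraries numbered 3 2.40 (adjusted p = 0.2747).

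Cytosolic aspartate aminotransferase (Got1, ENSMUSG00000025190, chr19:43499752-43524605) exchanges amino groups between aspartate and glutamate and returns carbon from mitochondria to the cytosolic step of Pck1. Its normalized counts were 4255.3, 1414.6 and 2827.5 in Control livers, 1739.5, 39349.5 and 14499.7 with Dox and 2863.1, 1878.6 and 2410.4 with Tc. Control libraries 1 and 2 already differed, library 2 being at 0.3324 of library 1, and the gap within the Dox group was 22.62-fold in the other direction. The log2 fold change of Got1 with Dox was 1.95 ± 0.97 by limma (adjusted p = 0.2166) and 2.71 ± 0.78 by DESeq2 (adjusted p = 0.00613).

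Serine dehydratase (Sds, ENSMUSG00000029597, chr5:120476526-120483932) feeds serine carbon into pyruvate. Its exons overlap those of Gm15690 and Plbd2 on the opposite strand, and whether reads were counted by strand is not stated, so their reads may be mixed. Normalized counts of Sds were 4180.1, 1874.7 and 3235.7 in Control livers, 2143.9, 6228.9 and 3436.4 with Dox and 2017.5, 2222.1 and 2134.2 with Tc. Control and Dox ranges overlapped, and the log2 fold change with Dox was 0.29 ± 0.40 (limma adjusted p = 0.6589). Its spread in Control livers was wider than its difference from them in Tc livers, where the log2 fold change was -0.47 ± 0.40 (adjusted p = 0.7231).

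Pyruvate dehydrogenase kinase 4 (Pdk4, ENSMUSG00000019577, chr6:5483351-5496309) blocks entry of pyruvate into the citric acid cycle and so spares it for glucose. Pdk4 was scarce in Control livers, at 36.0, 42.5 and 25.4 normalized counts, and in Tc livers, at 10.7, 31.5 and 18.5. With Dox it was 13.7, 1824.4 and 681.8. Dox library 1 was below every Control library and library 2 was 133.3-fold above library 1. By limma the log2 fold change of Pdk4 was 2.92 ± 1.49 with Dox (adjusted p = 0.2279) and -0.84 ± 1.49 with Tc (adjusted p = 0.8839), and DESeq2 gave 4.599 ± 1.22 with Dox (adjusted p = 0.00257).

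Igfbp1 (ENSMUSG00000020429, chr11:7197782-7202546) encodes a secreted binding protein of insulin-like growth factors whose liver transcript falls after feeding. It varied more than any of the other 9 genes. Control livers held 845.8, 356.5 and 653.5 normalized counts, Dox livers 61.1, 82200.5 and 27852.2 and Tc livers 209.9, 1709.5 and 766.4. Dox library 1 was at 0.09873 of the Control mean and Dox library 2 at 132.9-fold of it, a 1346-fold gap within the group, and in the Tc group library 2 was 8.142-fold above library 1. The limma log2 fold change with Dox of 3.16 ± 2.29 (adjusted p = 0.386) had a 95% interval from -2.06 to 8.38, and without Dox libraries 2 and 3 it was -3.23 (adjusted p = 0.05949). DESeq2 called Igfbp1 with 9 libraries, at 5.89 ± 1.54 (adjusted p = 0.002276), and not without the libraries numbered 3, at 6.10 (adjusted p = 0.2609).

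**Figure D2:**
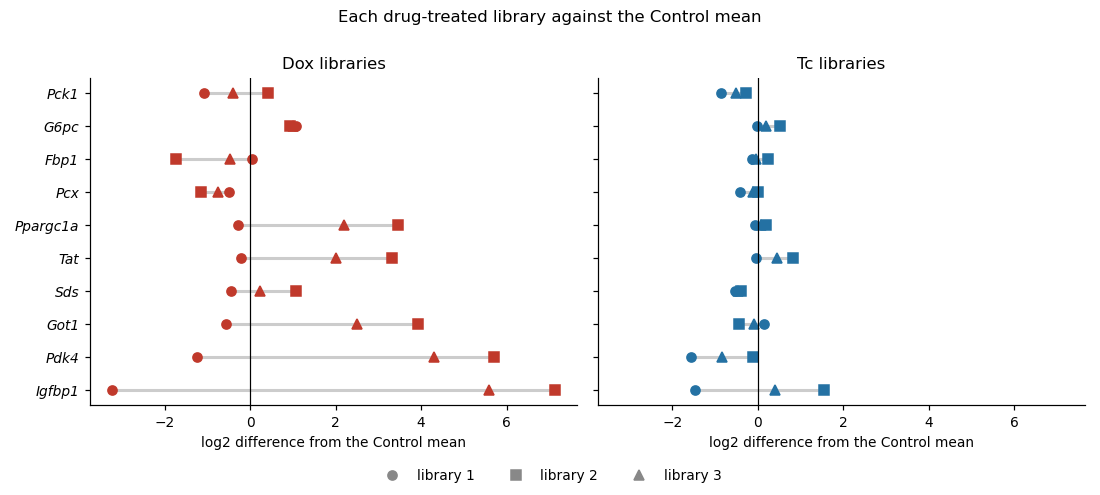
Log2 difference of each Dox library (left) and each Tc library (right) from the mean of the 3 Control libraries, on log2(normalized count + 1), for the 10 genes, where circles, squares and triangles are libraries 1, 2 and 3 and a grey line joins libraries 1 and 2. The Dox lines of Igfbp1, Pdk4 and Pck1 cross 0 from below all Control libraries to above them, and library 3 sits between the ends.

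Between Dox libraries 1 and 2, 8 of the 10 genes differed over 2-fold, 7 higher in library 2 and Fbp1 lower, beside 35.2% of all genes. In the Control group 4 did (Igfbp1, Got1, Ppargc1a and Sds, each lower in library 2), beside 4.84%, and in the Tc group 2 did (Pdk4 and Igfbp1, each higher in library 2), beside 8.45%. Relative to the range of the Control libraries, Dox library 2 was above for 8 genes and below for Fbp1 and Pcx, with none inside. Dox library 1 was above for G6pc, below for Pck1, Pcx, Pdk4 and Igfbp1 and inside for the other 5. For Igfbp1, Pdk4 and Pck1, Dox library 2 was above and Dox library 1 below every Control library, as for 13.3% of all genes. Igfbp1, Pdk4, Got1, Tat and Ppargc1a in Dox library 2 were over 2-fold above each of the 8 other libraries, as were 3.36% of all genes. Within the Dox group, Igfbp1 ranked 4th and Pdk4 25th of the 12100 genes by log2 difference of library 2 over library 1, Got1 87th, Ppargc1a 141st and Tat 166th. These are differences between single livers, with no test.

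Over the 6 libraries numbered 1 and 2, log2 levels of Ppargc1a, Tat, Got1, Pdk4 and Igfbp1 varied together, with Pearson r from 0.88 (Got1 and Igfbp1) to 0.9853 (Ppargc1a and Got1). Without Dox library 2 the range over the same 10 pairs was from -0.0963 (Got1 and Pdk4) to 0.8475 (Ppargc1a and Got1), so most of the likeness came from that liver. Among the 3 genes most like each of the 5 over the 6 libraries were Rbm22, Mbtps2 and Dusp16 for Ppargc1a (r = 0.9949, 0.9944 and 0.9933), Mpzl2 and Plekhg3 for Tat (0.9982 and 0.994) and Mbtps2, Pptc7 and Morc2a for Got1 (0.9971, 0.9962 and 0.9961). For Pdk4 they included Sult1e1 and Lama5 (0.9981 and 0.9974), and for Igfbp1 Eef1akmt4, Gm45716 and Tmem140 (0.9974, 0.9965 and 0.9931). Mbtps2 thus stood near both Ppargc1a and Got1. Libraries are the points here, and 1 liver sets their upper end.

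In Tc livers against Control livers, limma called 0 of the 10 genes with 9 libraries, beside 0.165% of all genes tested. Of the 10, 0 had an unadjusted p under 0.05, beside 1412 of the 12100 genes. DESeq2 also called 0 of the 10, beside 1.58% of all genes, and without the libraries numbered 3 both tools called 0 of the 10, beside 0% by limma (239 genes at an unadjusted p under 0.05) and 0.0744% by DESeq2. Each of these fits had 0 of the 10 at an unadjusted p under 0.05. The log2 fold changes ran from -0.84 for Pdk4 to 0.41 for Tat, with a median over the 10 genes of -0.05, against 0.00 over all genes. The intervals were narrow for G6pc (-0.17 to 0.62) and Pcx (-0.66 to 0.29). They were wide for Igfbp1 (-5.06 to 5.38) and Pdk4 (-4.22 to 2.55). This fit takes a shared spread from all 9 libraries, so the gaps between Dox libraries enter these widths. With only Tc and Control libraries in the limma fit, the change was 0.16 ± 0.69 for Igfbp1 (adjusted p = 0.9091). For Pdk4 it was -0.84 ± 0.39 (adjusted p = 0.2243). Tc library 2 was above the Control range for G6pc, Fbp1, Tat and Igfbp1, and Tc library 1 was above it for none and below it for Pck1, Pcx, Pdk4 and Igfbp1. In the same library 2, 16 of 19 acute-phase genes were over 2-fold higher than in Tc library 1 and 1 was lower, with a median log2 difference of 1.64. The part of that difference in the Tc values of the 10 genes was not tested.

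Doxycycline and tetracycline are both tetracycline antibiotics and differ in the place of a hydroxyl group on the ring system. They were given at the same concentration and for the same time, the amount drunk is not given, and this was the only pair of compounds. In Dox against Tc livers, limma called 0 of the 10 genes, beside 0.215% of all genes tested. At an unadjusted p under 0.05 were 3 of the 10 (G6pc, Pcx and Pdk4), beside 2622 of the 12100 genes. DESeq2 with 9 libraries called 4 (Got1, Igfbp1, Pdk4 and Ppargc1a), beside 5.03%. Without the libraries numbered 3, DESeq2 called 0, beside 0.256%, with 6 at an unadjusted p under 0.05, beside 764 of the 12100 genes. Without them limma called 0 with 0, beside 0% of all genes (454 at an unadjusted p under 0.05). G6pc was higher with Dox than with Tc in every pair of libraries, by a log2 difference of 0.78 ± 0.17 (limma adjusted p = 0.09566, 95% interval 0.39 to 1.17), and Pcx was lower in every pair, by -0.61 ± 0.21 (adjusted p = 0.1669, interval -1.09 to -0.14). These were the 2 genes whose Dox and Tc libraries did not overlap, as did 24.6% of all genes. DESeq2 gave G6pc 0.76 with an adjusted p of 0.001022, under the fold limit, and without the libraries numbered 3 0.75 with 0.6863. For Pdk4 the limma interval was 0.37 to 7.14 (difference 3.75 ± 1.49, adjusted p = 0.2035), and for Igfbp1 it was -2.22 to 8.22 (adjusted p = 0.4343). Pck1, at 0.19 ± 0.39 (interval -0.71 to 1.08, adjusted p = 0.7838), differed least. Blocking on the replicate number, limma again called 0 of the 10, and the adjusted p of G6pc was 0.1492. An effect seen with Dox and not with Tc is here no more than these differences show.

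**Figure D3:**
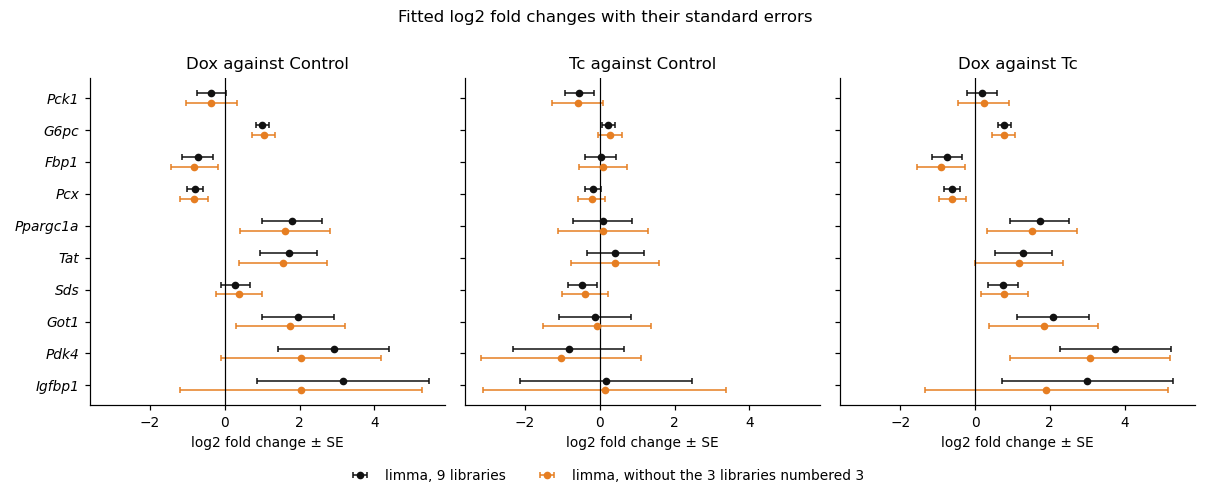
Log2 fold change of each gene in the 3 comparisons from limma on log2(normalized count + 1), where points are estimates and bars are standard errors, in black with all 9 libraries and in orange without the 3 libraries numbered 3. G6pc and Pcx have short bars on either side of 0 in Dox against Control, and Igfbp1 and Pdk4 have bars that span several log2 units.

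Genes of 9 lists of related function were tested in the same fits. Without the libraries numbered 3, limma called 0 genes of every list in each comparison. In Dox against Control, 1 to 9 genes of a list were then at an unadjusted p under 0.05, beside 1040 of all 12100 genes. Each limma call given for these lists thus rests on 9 libraries. Shares of all genes called there were 5.00% in Dox against Control, 0.215% in Dox against Tc and 0.165% in Tc against Control. Of 27 further gluconeogenic genes tested (transporters, shared glycolytic enzymes, transaminases and shuttle carriers), limma called 0 in each comparison. At an unadjusted p under 0.05 were 9 (Dox against Control), 4 (Dox against Tc) and 6 (Tc against Control). Of all 12100 genes, 3516, 2622 and 1412 were, in the same order. DESeq2 with 9 libraries called Gpt2 and Ldhb in Dox against Control, Ldha and Ldhb in Dox against Tc and 0 in Tc against Control, and without the libraries numbered 3 it called 0 in each. Their median log2 fold change with Dox was 0.17, against 1.36 for the 10 genes (-0.47 without Dox libraries 2 and 3) and 0.00 for all genes, a difference that was not tested. Slc37a4, the transporter that brings glucose-6-phosphate to G6pc, was 3203.1, 2934.5 and 3111.1 normalized counts in Control livers, 2095.4, 5229.3 and 3089.8 with Dox and 2208.9, 1886.6 and 2296.7 with Tc. Pck2, the mitochondrial form of Pck1, was scarce, at 38.1, 49.5 and 55.9 in Control livers and 17.9, 89.7 and 31.7 with Dox. Within the Dox group, 6 of the 27 were over 2-fold higher in library 2 than in library 1 and 3 were lower, a share near the 35.2% of all genes that differed over 2-fold in either direction. Of 20 genes of glycolysis and pyruvate oxidation, 2 fell with Dox, Hk2 by 1.45 and Pkm by 1.08 on the log2 scale (limma adjusted p = 0.03628 and 0.01629), and 0 rose. DESeq2 called both with 9 libraries, together with Hk1, and 0 of the 20 without the libraries numbered 3. In that last fit 4 had an unadjusted p under 0.05, beside 1275 of all 12100 genes. In Tc livers the log2 fold changes were -0.89 for Hk2 and -0.98 for Pkm (limma adjusted p = 0.3765 and 0.1059). Pklr, the liver pyruvate kinase, was 4214.0, 187.5 and 2642.9 with Dox and 2527.8, 4068.7 and 3044.9 in Control livers. Pklr was thus lowest of the 9 libraries in Dox library 2, where Igfbp1 and Pdk4 were highest.

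Among 30 regulators of hormone signalling and transcription, 2 rose with Dox by limma and 0 fell. DESeq2 called 5 with 9 libraries, Irs2 among them, and only Sik1 without the libraries numbered 3. Sik1, a kinase that restrains the CREB coactivator CRTC2, rose by a log2 fold change of 2.51 ± 0.53 (limma adjusted p = 0.02705), from 242.4, 143.3 and 171.6 in Control livers to 443.3, 2378.8 and 1068.1. With Tc it was 562.5, 919.0 and 726.8, also above every Control library, with a log2 fold change of 1.99 by limma (adjusted p = 0.2183) and a call by DESeq2 with 9 libraries (adjusted p = 0.009591) that was lost without the libraries numbered 3. Ppargc1b, a relative of Ppargc1a, rose by 1.48 ± 0.31 (adjusted p = 0.02716), from 166.2, 127.4 and 156.4 to 280.1, 639.6 and 409.1. For both, every Dox library was above every Control library, unlike Ppargc1a. DESeq2 without the libraries numbered 3 called Sik1 (adjusted p = 0.02915) and not Ppargc1b (0.1303). Irs2, an adaptor of the insulin receptor that insulin itself lowers, was 179.0, 5843.5 and 2064.9 with Dox against 738.8, 528.2 and 633.1 in Control livers, so Dox library 1 was below and Dox library 2 above the Control range, as for Igfbp1. The insulin receptor Insr was 3369.5, 2817.1 and 2998.3 with Dox and 3125.8, 2471.8 and 2851.7 in Control livers. The glucagon receptor Gcgr was lowest in Dox library 2, at 683.3, against 1320.8 to 1545.4 in Control livers. Foxo1 was 708.7, 1211.3 and 844.6 with Dox and 711.3, 721.9 and 802.2 in Control livers, and Nr3c1, the glucocorticoid receptor, was 1546.8, 1057.1 and 1301.2 and 1222.6, 1240.3 and 1322.2. In Dox against Tc, 1 of the 30 was higher, Trib3, a pseudokinase that binds Akt, by 1.65 ± 0.24 (limma adjusted p = 0.04977). DESeq2 with 9 libraries called 4 there, Irs2 and Trib3 among them. Trib3 was 176.9, 306.0 and 181.2 with Dox, 201.1, 141.6 and 165.3 in Control livers and 60.5, 66.5 and 75.8 with Tc, so the Dox and Control ranges overlapped and every Tc library was below both. In Tc against Control the log2 fold change of Trib3 was -1.30 by limma (adjusted p = 0.08978) and -1.32 by DESeq2, which called it (adjusted p = 0.000799). Without the libraries numbered 3, DESeq2 called Trib3 in Dox against Tc (adjusted p = 0.02724) and limma did not (0.7555).

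Of 25 further fasting-induced genes, 3 rose with Dox (Acot1, Cidec and Lpin2) and 2 fell, Ehhadh among them. Lpin2, a phosphatidate phosphatase, rose by a log2 fold change of 2.13 ± 0.39 (limma adjusted p = 0.01857). DESeq2 called 9 of the 25 with 9 libraries and, without the libraries numbered 3, only Acot1 and Lpin2. Within the Dox group 10 of the 25 were over 2-fold higher in library 2 and 7 were lower. Angptl4, an inhibitor of lipoprotein lipase, was 824.5, 5550.2 and 2231.1 with Dox and 751.1 to 1125.2 in Control livers. Cpt1a, which brings fatty acids into mitochondria, was 4839.5, 8546.7 and 5917.4 with Dox and 4834.8 to 6120.4 in Control livers. Fgf21, a fasting hormone of the liver, stayed scarce in every library, at 1.2 to 12.4 normalized counts.

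Among 18 glucocorticoid receptor targets, 2 rose with Dox against Control, Tdo2 by a log2 fold change of 1.69 ± 0.20 (limma adjusted p = 0.007442) and Gadd45a by 2.33 ± 0.53 (adjusted p = 0.03475), and 0 fell. DESeq2 called 8 of the 18 with 9 libraries and only Tdo2 without the libraries numbered 3. Within the Dox group 13 of the 18 were over 2-fold higher in library 2 than in library 1 and 1 was lower, with a median log2 difference of 1.53, against 2.53 for the 10 genes and 0.02 for all genes. Fkbp5, a chaperone used as a readout of the receptor, was 220.1, 2230.4 and 847.2 with Dox, 2062.0, 1505.7 and 1741.8 in Control livers and 792.9, 970.3 and 909.6 with Tc. Dox library 2 was thus near the Control libraries for Fkbp5 and Dox library 1 was the one that stood apart. Klf15, a fasting factor that controls amino acid enzymes, was 2081.7, 4560.9 and 2867.2 with Dox and 1888.8 to 2269.5 in Control livers, and Tsc22d3, another target, was 1015.1, 723.5 and 857.8 and 1205.0 to 1291.7. Of 31 amino acid breakdown genes, 2 rose with Dox, Tdo2 among them, and 1 fell (Uroc1). DESeq2 called 6 with 9 libraries and, without the libraries numbered 3, Tdo2 and Uroc1. Within the Dox group 9 of the 31 were over 2-fold higher in library 2 and 1 was lower, with a median log2 difference of 0.40. Of all 12100 genes tested, 2137 were over 2-fold higher and 2127 lower, with a median of 0.02.

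Genes of the fed state ran the other way in Dox library 2. Of 12 lipogenic genes tested, 10 were over 2-fold lower in Dox library 2 than in library 1 and 0 were higher, with a median log2 difference of -3.05. Fasn, the fatty acid synthase, was 18635.7, 1317.1 and 11995.8 with Dox and 6348.0 to 10181.0 in Control livers, and Srebf1, the factor that insulin raises to drive it, was 8268.0, 579.8 and 5171.4 and 1362.3 to 2303.7. Dox library 1 was thus above and library 2 below every Control library for both, the reverse of Igfbp1, Pdk4 and Pck1. Against the Control group 1 of the 12 rose with Dox, Gpam, which starts triglyceride synthesis, by 1.41 ± 0.15 (limma adjusted p = 0.005032), and 0 fell. DESeq2 called Gpam alone of the 12, with and without the libraries numbered 3.

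**Figure D4:**
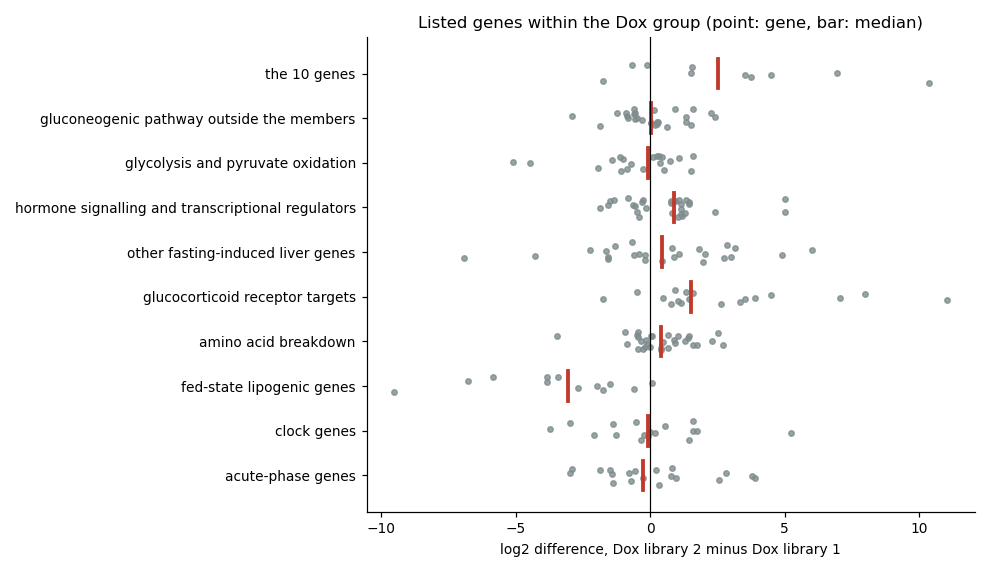
Log2 difference between Dox library 2 and Dox library 1 for each tested gene of 10 lists, on log2(normalized count + 1), where points are genes and red bars are medians. The 10 genes (median 2.53) and the glucocorticoid receptor targets (1.53) lie mainly to the right of 0 and the fed-state lipogenic genes (-3.05) to the left.

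Other gene lists and cell markers were read in the same livers. Of 17 clock genes tested, 2 rose with Dox (Bhlhe40 and Ciart) and 1 with Tc (Per2). DESeq2 with 9 libraries called 3 and 2, and without the libraries numbered 3 it called 0 in both comparisons. In those last fits 7 and 3 had an unadjusted p under 0.05, beside 1275 and 314 of all 12100 genes. Within the Dox group 5 were over 2-fold higher in library 2 and 5 lower. Arntl was 8.4, 349.7 and 117.9 normalized counts with Dox, 37.0, 62.8 and 59.8 in Control livers and 8.8, 12.6 and 5.9 with Tc, whereas Dbp was 1745.8, 223.2 and 1113.8, 911.4, 466.2 and 743.8, and 1673.7, 1511.7 and 1669.3. Dox library 2 was the highest of the 9 for Arntl and the lowest for Dbp. Per1 was 743.4, 2267.2 and 1288.9 with Dox and 567.0 to 647.8 in Control livers. Of 19 acute-phase genes, 11 fell with Dox against Control, with Saa2 lowered by 8.40 on the log2 scale (limma adjusted p = 0.01501), Saa1 by 7.24 (0.01025) and Apcs by 3.21 (0.02745). DESeq2 called 17 of the 19 with 9 libraries and 5 without the libraries numbered 3 (Apcs, Itih4, Orm2, Saa1 and Saa2). Within the Dox group 4 of the 19 were over 2-fold higher in library 2 than in library 1 and 6 were lower. The summed normalized count of 10 Kupffer cell markers was 9880.3 to 18015.9 in Control livers, 2746.2, 9216.2 and 4666.4 with Dox and 4844.5 to 9512.4 with Tc. The sum of 8 sinusoidal endothelial markers was 6286.6 to 6512.0 in Control livers, 3093.7 to 3465.9 with Dox and 4799.5 to 5553.8 with Tc, and that of 8 stellate cell and fibroblast markers was 4088.0 to 4349.4, 3416.9 to 3729.3 and 4109.2 to 4832.6. Members of the last list went opposite ways between Dox libraries 1 and 2, Col3a1 from 720.2 to 65.6 and Col1a1 from 467.5 to 92.0, against Dcn from 664.4 to 2298.3. Markers of cholangiocytes (6 genes) summed to 199.9 to 243.5, 148.4 to 375.9 and 255.8 to 335.4, of erythroid cells (9 genes) to 1560.3 to 6121.2, 832.8 to 2543.0 and 1370.5 to 2167.9 and of neutrophils (9 genes) to 58.2 to 442.3, 3.2 to 149.5 and 13.7 to 113.3. Of 9 pancreatic acinar markers, 6 (Cela3b, Pnlip, Try4, Cpa1, Prss2 and Amy2a5) were at 0 in every library. The acinar sum was 97.9 to 120.7 in Control livers, 29.9 to 68.4 with Dox and 73.7 to 126.0 with Tc. It was mainly Cela1, at 119.6 in Control library 1, where the sum was 120.7. Among 7 kidney markers, Aqp2, Slc5a2 and Kap were at 0 in every library. The sum of 7 intestinal epithelium markers, 6655.7 to 7918.8 in Control livers, was 1125.6 to 1876.1 with Dox and 1479.4 to 4971.1 with Tc. The intestinal sum was mainly Apoa4, which hepatocytes also express (7840.5 in Control library 1, where the sum was 7918.8). Sis, Alpi, Lct, Muc2 and Vil1 were at 15.9 or less in every library. Fabp2 was 275.9, 35.7 and 195.3 in Dox libraries 1, 2 and 3, against 76.2 to 132.7 in Control livers and 141.2 to 169.3 with Tc. The part of the clock, the acute-phase genes and the cell markers in the values of the 10 genes was not tested.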

How the data were processed

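Liver RNA-seq of 9 samples in 3 groups was analysed from 1 table. Per the labels and the study's methods, single-end reads of directional libraries were trimmed with cutadapt, mapped to mm10 with STAR and GENCODE vM23, counted per gene from unique mappings with HTSeq 2.0.5 and normalized with DESeq2 1.42.0. The deposited values are thus a signal, normalized counts, made by the authors. All its columns were used. Symbols were found for 32158 of 32285 identifiers, and coordinates of genes are those of GENCODE vM21 on the same assembly, GRCm38. Whole reads were recovered for all values (tolerance 0.1 read) and used for DESeq2 1.42.0 and edgeR 4.0.16. Depth bounds only counting error, which is largest in relative terms for scarce genes, such as Pdk4 in Control and Tc livers. Its size beside the differences between livers was not measured.

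From the values, log2(normalized count + 1) was tested with limma 3.58.1 in R 4.3.3 (trend, 1 model of 9 libraries, 12100 genes with a mean of at least 10, Benjamini-Hochberg adjustment). Scripts were tested on simulated data. P-values measure the spread between these libraries. The 10 genes, the lists and the rules for naming genes were chosen with earlier results of these data known. From the lists, the text names genes called by limma (where over 6 were called, the 3 changed most in each direction) and genes that define a list. Likeness was Pearson's r over 6 libraries for genes that span over 2 log2 units, among genes with a mean of at least 50, with the 3 highest named. Some genes that these rules name are not reported here.

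Deviations of same-numbered Dox and Tc libraries from their group means correlated in each of 3 pairs (r = 0.2875, 0.3212 and 0.1825), with no such relation to the Control libraries (-0.0807 to 0.055). The numbers are those of the labels, and with libraries 3 close to sums of the others the 3 values are not independent. A fit with the replicate number as a block is therefore given for Dox against Tc. Alternatives covered the pseudocount, the filter, scaling, the tool, whether the third group entered the fit, the libraries numbered 3, the block, the thresholds and single libraries left out, and 1 was added after seeing the data, without Dox libraries 2 and 3.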

Additional observations from a re-analysis of the deposited data

How the results depend on the processing

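Against the 1 of 10 genes called by limma in Dox against Control, DESeq2 called 6, and edgeR, both tools without the libraries numbered 3, and the replicate block with only the 2 groups in the fit called 0. The same block with all 9 libraries called 1. Leaving out single libraries gave 0 to 5 calls there and 0 to 5 in Dox against Tc. The highest count was without Dox library 1 in both cases (Got1, Igfbp1, Pdk4, Ppargc1a and Tat), and the counts of 0 in Dox against Control came without any 1 Control library or Dox library 3. In Dox against Tc, DESeq2 called 4, an unadjusted p in place of the adjusted one called 1 (Pdk4), and the block changed no call among the 10 genes. In Tc against Control the 10 genes had 0 calls under every alternative.

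Without Dox libraries 2 and 3, the log2 fold change with Dox against Control changed sign for Fbp1 (0.0331), Ppargc1a (-0.27), Tat (-0.20), Sds (-0.45), Got1 (-0.56), Pdk4 (-1.25) and Igfbp1 (-3.23), and against Tc for Pck1 (-0.54), Fbp1 (0.0117), Ppargc1a (-0.34), Tat (-0.62), Got1 (-0.43), Pdk4 (-0.41) and Igfbp1 (-3.39). In Tc against Control, Ppargc1a changed sign with DESeq2 (-0.0206), edgeR (-0.0256) and DESeq2 without the libraries numbered 3 (-0.0452). With single libraries left out, Pck1 ranged from -0.75 to 0.0044 and Sds from -0.11 to 0.66 in Dox against Control, Fbp1 from -0.14 to 0.14, Ppargc1a from -0.26 to 0.39, Got1 from -0.56 to 0.23 and Igfbp1 from -0.54 to 0.97 in Tc against Control, and Pck1 from -0.20 to 0.55 in Dox against Tc. Apart from the libraries left out, the cause was not tested.

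Over all genes, 605 were called in Dox against Control, and alternatives gave 0 (limma without the libraries numbered 3) to 1500 (without Dox library 1). In Tc against Control the count was 20, with 0 to 389 over the alternatives, and in Dox against Tc 26, with 0 to 1362. The replicate block with all 9 libraries gave 557, 2 and 2 calls in the same order, and with only the groups compared 5, 333 and 0. With the same total per library in place of size factors, the median log2 fold change of all genes in Dox against Control moved from 0.00 to 0.17 and that of G6pc from 1.01 to 1.18, so that relative to all genes it stayed alike. Of the 10 genes, counting error is largest for Pdk4, at 10.7 normalized counts in its lowest library.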
